A study of Sus scrofa with 12 samples.

Results

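The 26S proteasome is the protease that destroys proteins tagged with ubiquitin. Its 20S core is a barrel in which outer rings of alpha subunits gate the entry and inner rings of beta subunits carry the cutting sites. The 19S cap sits on the barrel ends, where its base of ATPases unfolds the substrate and its lid removes the ubiquitin chain. Other activators can take the place of the cap, and dedicated chaperones assemble each part. In early embryos the ubiquitin-proteasome system is known for clearing maternal proteins and, as in other cells, for removing damaged proteins.

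Proteasome genes were taken from the expression table by symbol, as every pig Ensembl gene whose symbol starts with PSMA, PSMB, PSMC, PSMD, PSME, PSMF or PSMG followed by a number. The rule used no measured value. It found 46 genes among 31781 identifiers, of which 15347 carried a symbol. They are 8 alpha subunits, 1 constitutive catalytic beta subunit, 4 structural beta subunits, 4 beta subunits of the immunoproteasome and thymoproteasome, 6 ATPases and 3 non-ATPase subunits of the 19S base, and 8 subunits of the lid. The others are 3 chaperones of the 19S cap, 4 activators, 1 inhibitor and 2 chaperones of the 20S core. A further 2 genes, PSMC3IP and PSME3IP1, matched by symbol but are not parts of the proteasome. No identifier carried the symbols PSMB5, PSMB6, PSMG2 or PSMG4, so these were not analysed here. In all, 44 of the 46 genes passed the filter on low values described below, and the other 2, PSMB8 and PSMB11, were listed at 0 in all 11 libraries. The 29 constitutive 20S, base and lid genes other than the germ-cell alpha subunit PSMA8 are called the 26S core below.

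The libraries were made with Smart-Seq2, which amplifies cDNA from very small inputs, from pig (Sus scrofa) parthenogenetic blastocysts, embryos grown from eggs activated without sperm. There were 3 libraries of fresh, unfrozen controls, 2 of the group labelled vitrification, 3 of vitrification I and 3 of vitrification II, and the third vitrification library was not analysed here. In vitrification, cells are cooled so fast that water turns to glass instead of ice. The labels do not say how the vitrified groups differed or to which of them the liquid helium in the series title belongs, nor do they give strain, embryo age or the number of embryos per library. The labels name blastocyst as the source, while the extraction protocol speaks of sorted single cells, so the p-values cover only library-to-library spread, part of which may be technical.

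Values are FPKM, fragments scaled to gene length and library size, and sequencing depth is unknown. Summed FPKM ran from 439650 to 591894 per library, and 13 mitochondrially encoded genes held 39.9% ± 3.44 (SD, n = 3) of it in fresh control, 45.3% ± 9.21 (n = 2) in vitrification, 55.7% ± 10.6 (n = 3) in vitrification I and 19.6% ± 2.59 (n = 3) in vitrification II. Genes were tested with limma on log2(FPKM + 1). The 9411 genes that reached an FPKM of 1 in 3 or more libraries were kept. A gene was called at a Benjamini-Hochberg adjusted p under 0.05 over all of them. The median change of all 9411 genes was 0.19 for vitrification against fresh control, -0.06 for vitrification I against fresh control, 0.62 for vitrification II against fresh control and 0.68 for vitrification II against vitrification I. Changes of single genes are therefore given as a log2 change ± SE and also relative to that median. The trophectoderm list (9 of 9 genes in the table, led by KRT8 and KRT18) summed to FPKM of 10273 to 15276 in fresh control, 6446 to 16842 in vitrification, 2461 to 5684 in vitrification I and 13423 to 21826 in vitrification II. The epiblast list (3 of 5 genes) summed to FPKM of 9.39 to 13.8, 7.29 to 11.8, 0.471 to 6.22 and 38.6 to 86.9 in the same order of groups, and the hypoblast list (4 of 5, with FOXA2 at 0) to 10.6 to 19.3, 18.3 to 45.1, 16.4 to 23.3 and 19 to 26.5. Leukocyte genes (5 of 5, with PTPRC at 0) summed to at most 5.76 and cumulus genes (4 of 6) to at most 3.93 in any library. Single markers did not all follow their sum. In vitrification I the trophectoderm gene TFAP2A had a mean FPKM of 123 ± 28.9 (SD, n = 3) against 9.76 ± 3.74 in fresh control, and GATA3 and TFAP2C had higher means with ranges that overlapped fresh control, while the sum, mostly KRT8 and KRT18, was lower. In vitrification II the KRT18 mean was 2574 ± 386 (SD, n = 3) against 4393 ± 494 in fresh control, while KRT8 was higher. The epiblast sum of vitrification II was mostly LIN28A, with a mean of 50.6 ± 28.9 against 7.63 ± 1.64. Mitochondrial share and these marker levels differed between the groups, and their part in the results below was not tested.

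Within a library, proteasome genes spanned a wide range of FPKM. PSMB7, the beta subunit with trypsin-like activity, ranked first among the 29 core genes in all 11 libraries. PSMB1 and PSMB4, structural subunits of the beta ring, and PSMA5, a subunit of the alpha ring, were among the top 5 in all 11. PSMD3, a scaffold subunit of the lid, was among the 2 lowest in all 11. Other genes changed places between libraries, such as PSMD1, a scaffold of the base, which ranked from 13 to 28, and PSMA7, an alpha subunit, from 4 to 15. Not every 20S gene was high: the beta subunit PSMB2 ranked from 18 to 28 and the alpha subunit PSMA4 from 15 to 28. The median FPKM of the 12 constitutive 20S genes was 2.23 ± 0.12 (SD, n = 3) times that of the 17 base and lid genes in fresh control, 2.79 ± 1.22 (n = 2) in vitrification, 2.2 ± 0.51 (n = 3) in vitrification I and 1.87 ± 0.37 (n = 3) in vitrification II. The ranges of this ratio overlapped between all groups, from 1.79 to 2.77 in vitrification I and from 1.49 to 2.22 in vitrification II.

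**Figure D1:**
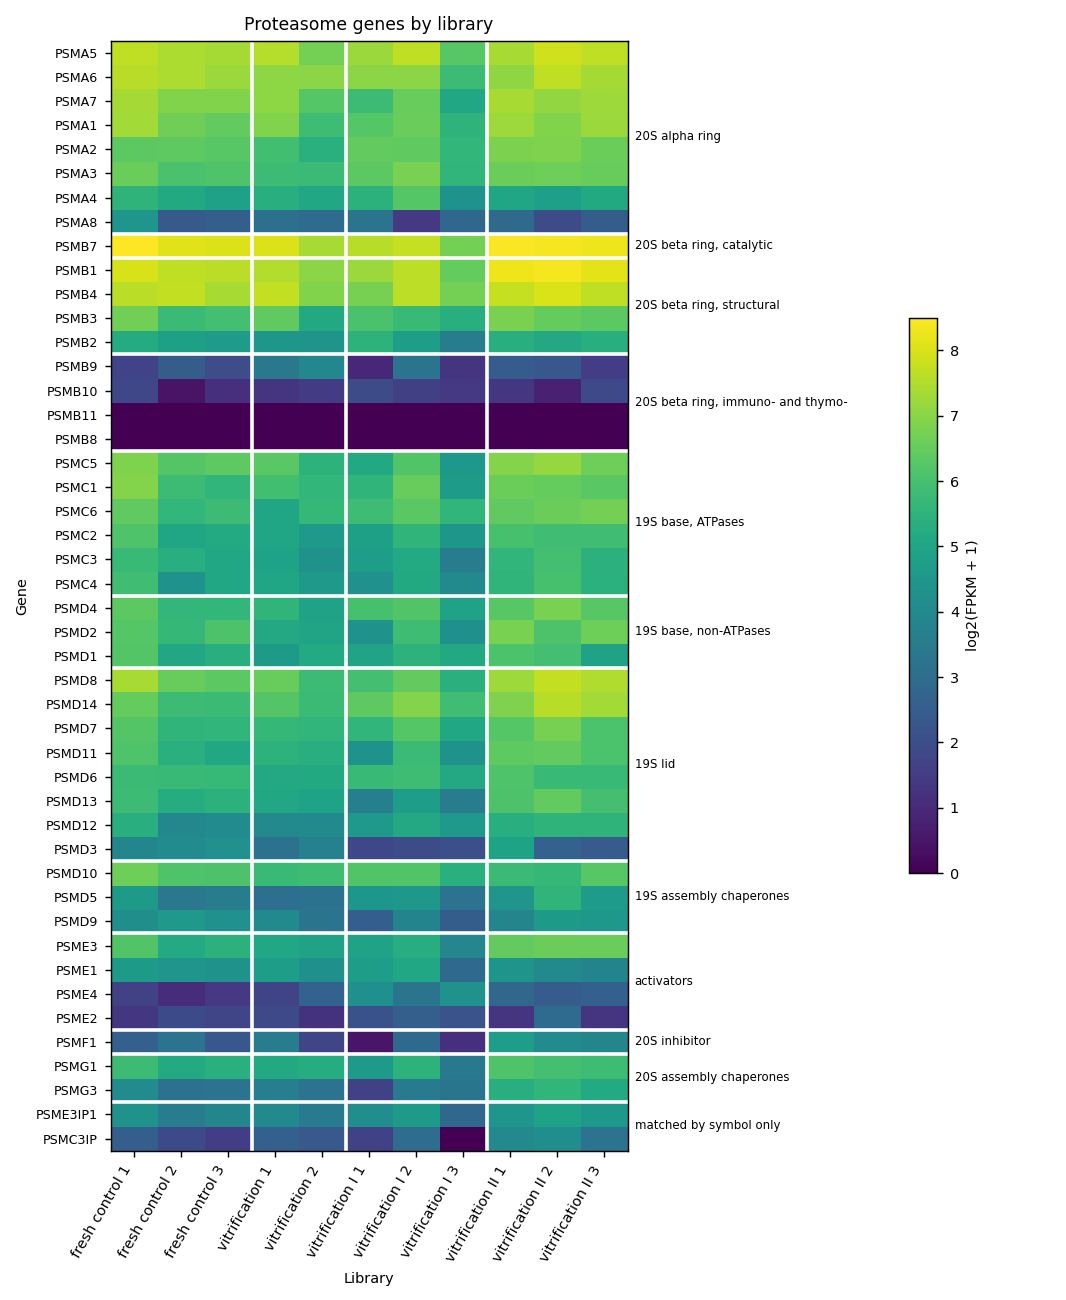
Level of the 46 proteasome genes as log2(FPKM + 1) in each of the 11 libraries, with genes ordered by part of the proteasome and by mean level and white lines between groups and parts. PSMB7 is the brightest row, PSMB8 and PSMB11 are at 0 throughout, and vitrification I library 3 is the darkest column.

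Together the 46 genes took the largest share of FPKM in vitrification II. Their share of all FPKM was 0.638%, 0.427% and 0.425% in the fresh control libraries, 0.456% and 0.342% in vitrification, 0.360%, 0.536% and 0.211% in vitrification I, and 0.820%, 0.783% and 0.732% in vitrification II. All 3 vitrification II libraries lay above the other 8, fresh control 1 stood above its group, and vitrification I library 3 was the lowest of all. When the share was taken of the FPKM outside the mitochondrial genes, the means were 0.837% ± 0.260 (SD, n = 3), 0.727% ± 0.0250 (n = 2), 0.807% ± 0.191 (n = 3) and 0.969% ± 0.0766 (n = 3). On that basis the groups overlapped, since fresh control 1 held 1.14%, more than any vitrification II library. Where a library holds several cells, fewer cells of a type and less RNA per cell cannot be told apart.

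**Figure D2:**
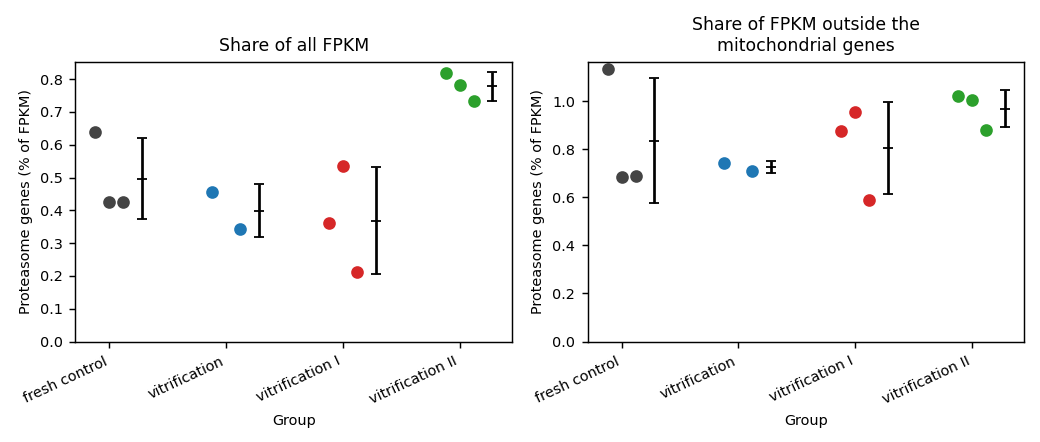
Share of FPKM held by the 46 proteasome genes in each library (points, by group), as percent of all FPKM at left and of FPKM outside the 13 mitochondrial genes at right, with bars for the mean ± SD. At left the vitrification II libraries, at 0.732% to 0.820%, lie above all others; at right they lie within the range of fresh control.

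In the fit with all 11 libraries no comparison with fresh control called a larger share of proteasome genes than of all genes in either direction. For vitrification against fresh control 0 of 44 genes were called, where 1.25% of all genes tested were called higher and 0.117% lower. Before adjustment, with p under 0.05, 1 of 44 was higher and 0 were lower, against 15.2% and 2.96% of all genes. For vitrification I, 1 gene was higher (2.27% of 44, against 8.85% of all genes) and 4 were lower (9.09%, against 9.77%). For vitrification II against fresh control 4 genes were higher (9.09%, against 24.6%) and 0 lower (against 1.09%). For vitrification II against vitrification I 17 genes were higher (38.6%, against 34.7%) and 1 was lower (2.27%, against 3.75%). The F test over the 4 groups called 13 of 44 (29.5%, against 42.7% of all genes). The share of the 44 genes called was thus below the background in each direction except for genes higher in vitrification II than in vitrification I, where it was near it. These shares rest on few calls. For genes lower in vitrification I the share exceeded the background without vitrification I library 2 (25.0%, against 14.1%), with equal library medians (15.9%, against 12.3%), after scaling to the 26S core (9.09%, against 5.09%) and with no filter (2.27%, against 1.91%). It did so also for genes higher in vitrification I with no filter (2.27%, against 1.83%) and for genes lower in vitrification II without vitrification II library 1 (2.27%, against 0.98%). The 18 genes called higher in vitrification II with array weights were 40.9%, against 48.2% of all genes.

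The median log2 change of the 44 genes was -0.40 for vitrification against fresh control, with 38 of 44 fitted changes below 0. It was -0.46 for vitrification I, with 37 below 0. For vitrification II it was 0.40 against fresh control and 0.82 against vitrification I, with 37 of 44 above 0 each time. Of all 9411 genes, 3699 had changes below 0 in vitrification and 4987 in vitrification I against fresh control. For vitrification II 7696 were above 0 against fresh control and 7201 against vitrification I, so most genes rose there. The first 3 comparisons share the fresh control libraries, and fresh control 1 was the highest of its group. Relative to the median of all genes these medians were -0.58, -0.40, -0.22 and 0.13. Genes with a mean FPKM of at least 10, the range of most proteasome genes, had medians of -0.16, -0.30, 0.50 and 0.81. With equal library medians, a shift of each library that moves all its genes alike, the median for vitrification II against fresh control was -0.48, so its sign depends on the scaling. Scaling to the 26S core sets the median of 29 of the 44 genes equal in every library, and the median of the 44 says nothing after it. Against vitrification I the vitrification II median stayed above 0 but shrank to 0.20 on the FPKM outside the mitochondrial genes and to 0.02 with equal library medians.

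Most of these calls ended under another scaling of the libraries. Between vitrification II and vitrification I the same 12 of the 18 genes lost their call on the FPKM outside the mitochondrial genes (adjusted p = 0.0596 to 0.386) and after scaling to the 26S core (0.0755 to 0.630). They were PSMA7, PSMB1, PSMB7, PSMC3, PSMC4, PSMC5, PSMD2, PSMD3, PSMD8, PSMD9, PSMD11 and PSMG1. With equal library medians PSMC3IP was lost beside them (0.0612 to 0.668), quantile normalization ended 9 calls (0.0686 to 0.400) and omitting the filter 8 (0.0571 to 0.182). PSMD3 also lost its call with array weights (0.0518), and PSMC3 and PSMD3 when only the compared groups were fitted (0.0588 to 0.0865). PSMD13, PSMG3, PSME3, PSMF1 and PSME4 kept theirs in all of these. All 4 calls of vitrification II against fresh control ended without the filter, after quantile normalization, with equal library medians and after scaling to the core (0.0588 to 0.588). PSME4 and PSMC3IP ended there also outside the mitochondrial genes (0.0830 to 0.128), and PSMC3IP with a pseudocount of 0.1 (0.187). In vitrification I against fresh control the calls of PSMA7 and PSMD9 ended outside the mitochondrial genes (0.0833 to 0.144) and in the fit of the compared groups only (0.0611 to 0.0820), those of both and PSMD3 without the filter (0.0850 to 0.119), and that of PSMD9 after scaling to the core (0.0586). Calls that ended when a library was left out are given with each gene below.

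**Figure D3:**
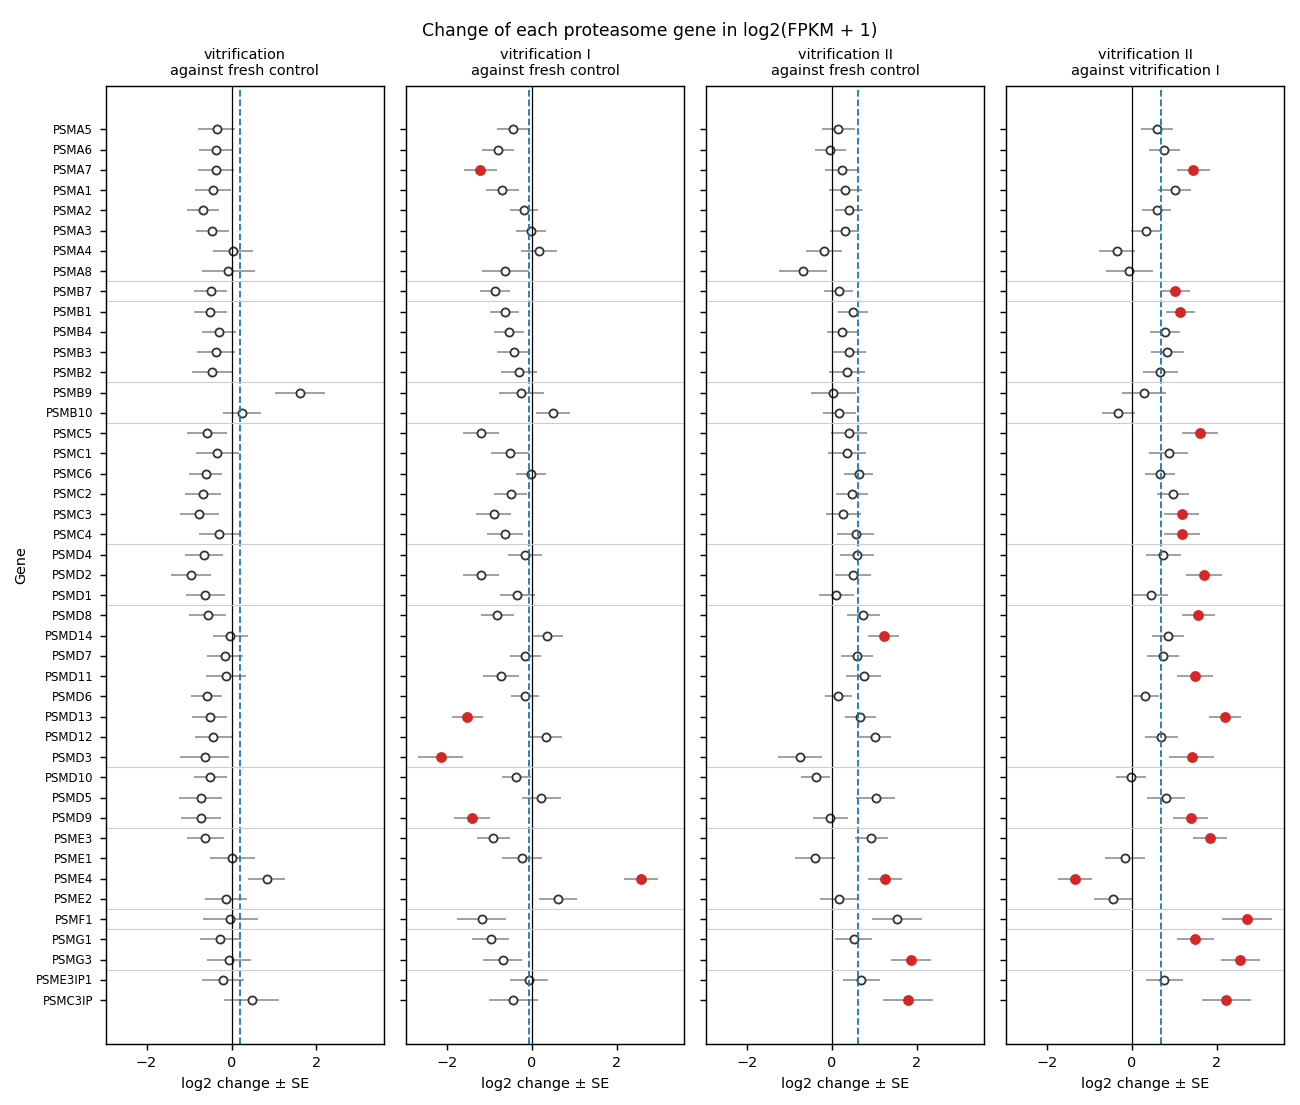
Log2 change ± SE of each of the 44 proteasome genes tested, in log2(FPKM + 1), for the 4 comparisons, with filled red points for genes called at an adjusted p under 0.05 and a dashed blue line at the median of all 9411 genes. Called genes number 0, 5, 4 and 18 from left to right. The median of the 44 genes in the third panel, 0.40, is -0.48 with equal library medians.

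The alpha ring of the 20S core held 8 genes, of which 1 fell in vitrification I (12.5%, against 9.77% of all genes) and 1 was higher in vitrification II than in vitrification I (12.5%, against 34.7%). That gene was PSMA7 in both cases. PSMA7 had FPKM of 161, 116 and 116 in fresh control, 133 and 75.9 in vitrification, 55, 91.6 and 33.4 in vitrification I and 167, 139 and 151 in vitrification II. The vitrification I libraries lay below all fresh control and all vitrification II libraries, which overlapped each other. PSMA7 fell by 1.21 ± 0.39 against fresh control (-1.15 relative to the median gene, adjusted p = 0.0401) and was 1.44 ± 0.39 higher in vitrification II than in vitrification I (0.76, adjusted p = 0.00923). The PSMA7 fall was no longer called without fresh control library 1, 2 or 3, or vitrification I library 1 or 3, or vitrification II library 1, 2 or 3 (adjusted p = 0.0511 to 0.135).

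PSMA5, the alpha subunit with the highest mean, had FPKM of 203, 173 and 161 in fresh control, 187 and 104 in vitrification, 147, 204 and 76.3 in vitrification I and 166, 232 and 202 in vitrification II. All 4 groups overlapped, with the lowest value in vitrification I library 3. PSMA8 is the alpha subunit that in mice replaces PSMA7 in germ cells. Its FPKM was 20.6, 4.32 and 5.0 in fresh control, 7.82 and 6.95 in vitrification, 8.61, 1.66 and 6.37 in vitrification I and 6.65, 2.84 and 4.64 in vitrification II. Fresh control 1 stood alone above the other 10 libraries. PSMA8 passed no test, with an adjusted p of 0.466 for vitrification I and 0.375 for vitrification II against fresh control. The other 5 alpha genes, PSMA1, PSMA2, PSMA3, PSMA4 and PSMA6, had means of 37.3 to 144 FPKM over all libraries and none was called. Of the 29 core genes PSMA4 alone had a fitted change below 0 from vitrification I to vitrification II, -0.36 ± 0.42, or -1.04 relative to the median gene.

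In the beta ring 2 of the 5 constitutive genes were higher in vitrification II than in vitrification I, where 34.7% of all genes were, and none was called against fresh control. PSMB7 had FPKM of 359, 274 and 262 in fresh control, 263 and 166 in vitrification, 192, 213 and 104 in vitrification I and 349.6, 334 and 308 in vitrification II. Its vitrification I values lay below those of fresh control and of vitrification II, which overlapped each other. The difference between vitrification II and vitrification I was 1.02 ± 0.35 (0.34 relative, adjusted p = 0.0314). PSMB1 had FPKM of 252, 204 and 196 in fresh control, 181 and 127 in vitrification, 149, 201 and 87.6 in vitrification I and 306, 329.9 and 280.1 in vitrification II. Every vitrification II library exceeded the other 8. PSMB1 was 1.14 ± 0.35 higher than in vitrification I (0.45 relative, adjusted p = 0.0189), while its change against fresh control was 0.50 ± 0.35 (adjusted p = 0.304). The PSMB7 call ended without vitrification I library 3, or vitrification II library 1, 2 or 3 (adjusted p = 0.0613 to 0.118). The PSMB1 call ended without vitrification I library 3, or vitrification II library 1 or 2 (adjusted p = 0.0530 to 0.0714). PSMB2, the beta gene of the constitutive ring with the lowest mean, had FPKM of 36, 27.2 and 24.6 in fresh control, 21.7 and 19.9 in vitrification, 44, 25.2 and 11 in vitrification I and 39.8, 34 and 38.6 in vitrification II. Its vitrification values lay below those of fresh control and vitrification II, and vitrification I overlapped all groups. PSMB3 and PSMB4 were not called in any comparison.

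The immunoproteasome replaces the catalytic beta subunits with PSMB8, PSMB9 and PSMB10 and is known for making peptides for antigen presentation, while PSMB11 belongs to the thymoproteasome of thymic cortical cells. PSMB8 and PSMB11 were listed at 0 in all 11 libraries. PSMB10 stayed low, at FPKM of 2.52, 0.358 and 1.27 in fresh control, 1.47 and 1.78 in vitrification, 2.83, 2.03 and 1.66 in vitrification I and 1.51, 0.701 and 2.67 in vitrification II, and its groups overlapped. It was far below its constitutive partner PSMB7 in every library. PSMB9 had FPKM of 2.28, 4.67 and 3.05 in fresh control, 9.66 and 14.6 in vitrification, 0.926, 8.61 and 1.45 in vitrification I and 4.53, 4.0 and 1.92 in vitrification II. Both vitrification libraries lay above the other 9, of which vitrification I library 2 came closest. The change against fresh control was 1.61 ± 0.59 (1.42 relative) and did not pass (adjusted p = 0.154). It was the 1 proteasome gene with an unadjusted p under 0.05 in that comparison. The constitutive partners of PSMB8 and PSMB9 are PSMB5 and PSMB6, which were not analysed here.

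In the 19S base, 3 of the 6 ATPase genes and 1 of the 3 non-ATPase genes were higher in vitrification II than in vitrification I, where 34.7% of all genes were, and none was called against fresh control. PSMC5, the ATPase gene with the highest mean, had FPKM of 114, 74.1 and 82.9 in fresh control, 79.6 and 44 in vitrification, 34.7, 71.6 and 22 in vitrification I and 119, 140.5 and 97.2 in vitrification II. Vitrification I lay below both fresh control and vitrification II, which overlapped. Against vitrification I, PSMC5 was 1.60 ± 0.42 higher in vitrification II (0.92 relative, adjusted p = 0.00803), and its change in vitrification I against fresh control was -1.20 ± 0.42 (adjusted p = 0.0582). PSMC4, the ATPase gene with the lowest mean, had FPKM of 58.8, 19.5 and 33 in fresh control, 31.9 and 23.2 in vitrification, 18.7, 34.6 and 15.3 in vitrification I and 45.8, 64.6 and 42.1 in vitrification II. Its vitrification II values lay above those of vitrification I and overlapped fresh control. PSMC4 differed by 1.18 ± 0.43 between them (adjusted p = 0.0408) and PSMC3, another ATPase, by 1.16 ± 0.41 (adjusted p = 0.0370). The PSMC4 call ended without fresh control library 3, or vitrification I library 1 or 3, or vitrification II library 1, 2 or 3 (adjusted p = 0.0534 to 0.139). The PSMC3 call ended without vitrification I library 1 or 3, or vitrification II library 1, 2 or 3 (adjusted p = 0.0568 to 0.155). PSMC1, PSMC2 and PSMC6 were not called in any comparison.

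PSMD2, a scaffold of the base that docks shuttle receptors, had FPKM of 75.8, 48.9 and 69.1 in fresh control, 33.8 and 30.5 in vitrification, 19, 57.5 and 18 in vitrification I and 108, 69 and 96.4 in vitrification II. Vitrification I libraries 1 and 3 were the lowest, and all 3 lay below vitrification II. PSMD2 was 1.69 ± 0.42 higher in vitrification II than in vitrification I (1.01 relative, adjusted p = 0.00627). PSMD4, a ubiquitin receptor, had FPKM of 81.1, 48.7 and 48.2 in fresh control, 46 and 28.4 in vitrification, 64.1, 72.6 and 29 in vitrification I and 76.7, 109 and 77.4 in vitrification II. PSMD1, the other large scaffold of the base, had FPKM of 73.7, 32.2 and 39.4 in fresh control, 23.9 and 35.8 in vitrification, 30.3, 43.6 and 34.5 in vitrification I and 66.5, 61.2 and 28.5 in vitrification II. Neither gene was called, and for both vitrification II overlapped fresh control.

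Of the 8 lid genes 2 were lower in vitrification I than in fresh control (25.0%, against 9.77% of all genes), 1 was higher in vitrification II than in fresh control (12.5%, against 24.6%), and 4 were higher in vitrification II than in vitrification I (50.0%, against 34.7%). PSMD13 (ENSSSCG00000014559), a structural lid subunit, had FPKM of 55.6, 37.4 and 43 in fresh control, 32.3 and 29.7 in vitrification, 11.8, 26 and 10.8 in vitrification I and 69, 85.7 and 62.2 in vitrification II. No 2 groups overlapped: vitrification II was highest, then fresh control, vitrification and vitrification I. PSMD13 fell by 1.52 ± 0.37 in vitrification I against fresh control (-1.45 relative, adjusted p = 0.0119). It was 2.18 ± 0.37 higher in vitrification II than in vitrification I (1.50 relative, adjusted p = 0.000525), the smallest p among the 44 genes in that comparison, and the call held in all 20 alternatives tried. Its fall in vitrification I lost the call only without vitrification I library 1 (adjusted p = 0.0535). Against fresh control the vitrification II change of 0.67 ± 0.37 did not pass (adjusted p = 0.194).

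PSMD3 had FPKM of 13.9, 15.9 and 18.8 in fresh control, 8.09 and 12.4 in vitrification, 2.59, 2.8 and 3.23 in vitrification I and 29.5, 5.41 and 4.42 in vitrification II. The vitrification I libraries lay close together below all others, and vitrification II library 1 stood far above libraries 2 and 3 of its group. PSMD3 fell by 2.15 ± 0.52 in vitrification I (-2.08 relative, adjusted p = 0.0115), the largest fall among the 44 genes in that comparison. That call held in every fit that left out a library. The difference between vitrification II and vitrification I, 1.40 ± 0.52 (adjusted p = 0.0454), was not called without fresh control library 2 or 3, or vitrification library 1 or 2, or vitrification I library 1, 2 or 3, or vitrification II library 1 (adjusted p = 0.0543 to 0.257).

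PSMD14 encodes the metalloprotease that cuts ubiquitin chains from the substrate. It had FPKM of 89.6, 55.5 and 54 in fresh control, 73.7 and 54.1 in vitrification, 83.2, 121 and 58 in vitrification I and 115, 189.9 and 159.8 in vitrification II. Vitrification II lay above fresh control and overlapped vitrification I, whose library 2 exceeded vitrification II library 1. PSMD14 was 1.22 ± 0.37 higher in vitrification II than in fresh control (0.60 relative, adjusted p = 0.0269) and was the only core gene called there. The PSMD14 call ended without fresh control library 2 or 3, or vitrification II library 2 or 3 (adjusted p = 0.0766 to 0.106). PSMD7, the inactive partner of PSMD14, was not called, with a change of 0.59 ± 0.37 (adjusted p = 0.256).

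PSMD8 had FPKM of 165, 90.5 and 80.3 in fresh control, 91.6 and 55.8 in vitrification, 60.7, 86.8 and 40.6 in vitrification I and 151, 211 and 179 in vitrification II. It was the lid gene with the highest mean, and fresh control 1 reached into the range of vitrification II. PSMD11, a lid scaffold that touches the 20S core, had FPKM of 69.9, 41.3 and 33.5 in fresh control, 43.7 and 39.8 in vitrification, 19.2, 54.3 and 19.4 in vitrification I and 81.9, 85.7 and 67.2 in vitrification II. Here too vitrification II lay above vitrification I and overlapped fresh control 1. Against vitrification I, PSMD8 was 1.56 ± 0.39 higher (0.88 relative, adjusted p = 0.00609) and PSMD11 1.48 ± 0.42 (0.79 relative, adjusted p = 0.0128). The PSMD8 call held in every fit that left out a library. The PSMD11 call ended without vitrification I library 1 or 3 (adjusted p = 0.0503 to 0.0599). PSMD6 and PSMD12 were not called in any comparison.

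Of the 3 chaperones that help build the base, PSMD9 was called and PSMD5 and PSMD10 were not. The share called lower in vitrification I against fresh control was 33.3%, against 9.77% of all genes. The share higher in vitrification II than in vitrification I was 33.3%, against 34.7%. PSMD9 had FPKM of 17.7, 23.1 and 18.6 in fresh control, 15.3 and 8.74 in vitrification, 4.8, 13.4 and 4.63 in vitrification I and 13.5, 23.7 and 21.9 in vitrification II. Vitrification I lay below fresh control, and its library 2 was just under vitrification II library 1. PSMD9 fell by 1.41 ± 0.42 in vitrification I (-1.35 relative, adjusted p = 0.0291) and was 1.38 ± 0.42 higher in vitrification II than in vitrification I (0.69 relative, adjusted p = 0.0179). The PSMD9 fall was lost without fresh control library 2 or 3, or vitrification I library 1 or 3 (adjusted p = 0.0757 to 0.110). Its second call was lost without vitrification I library 1 or 3, or vitrification II library 2 or 3 (adjusted p = 0.0586 to 0.0723). PSMD10, also known as the oncoprotein gankyrin, had FPKM of 96.6, 69.9 and 67.9 in fresh control, 51.8 and 57 in vitrification, 72.5, 71.7 and 41.1 in vitrification I and 53.8, 49.6 and 76.4 in vitrification II. Its fitted difference between vitrification II and vitrification I was -0.02 ± 0.35, or -0.70 relative to the median gene.

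Of the 20S chaperones, which build the alpha ring in pairs, PSMG1 and PSMG3 were measured. Both were called higher in vitrification II than in vitrification I, where 34.7% of all genes were. Against fresh control PSMG3 alone was called higher in vitrification II, where 24.6% of all genes were. PSMG3 (ENSSSCG00000007556) had FPKM of 16, 8.11 and 8.41 in fresh control, 11.5 and 8.37 in vitrification, 2.15, 10.3 and 8.84 in vitrification I and 39.4, 46.7 and 35.4 in vitrification II. The vitrification II libraries lay well above all 8 others, which overlapped. PSMG3 was 1.86 ± 0.46 higher in vitrification II than in fresh control (1.24 relative, adjusted p = 0.0103) and 2.55 ± 0.46 higher than in vitrification I (1.87 relative, adjusted p = 0.000791). The latter call held in all 20 alternatives tried, and among fits that left out a library the former ended only without fresh control library 2 (adjusted p = 0.0505). PSMG1 had FPKM of 55.6, 35.9 and 40.7 in fresh control, 34.6 and 37.1 in vitrification, 22.9, 44 and 9.81 in vitrification I and 69.5, 61.6 and 56.9 in vitrification II. Vitrification II was again above all others, though its lowest library only just exceeded fresh control 1. PSMG1 differed by 1.49 ± 0.44 from vitrification I (0.80 relative, adjusted p = 0.0152), a call that ended without vitrification I library 3 (adjusted p = 0.0624). Against fresh control its change was 0.52 ± 0.44 (adjusted p = 0.391).

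Of the 4 activators that can replace the 19S cap, 1 rose in vitrification I against fresh control (25%, against 8.85% of all genes). The same gene rose in vitrification II against fresh control (25%, against 24.6%). Between the numbered vitrified groups 1 was higher (25%, against 34.7%) and 1 lower (25%, against 3.75%) in vitrification II. PSME4 (ENSSSCG00000008412) encodes a nuclear activator tied, in mice, to the removal of acetylated histones during sperm formation. Its FPKM was 2.17, 1.11 and 1.67 in fresh control, 2.34 and 5.39 in vitrification, 18.4, 8.57 and 19.6 in vitrification I and 5.94, 4.55 and 5.14 in vitrification II. Vitrification I lay above all other libraries, and every vitrified library lay above fresh control. PSME4 rose by 2.58 ± 0.40 in vitrification I (2.64 relative, adjusted p = 0.000906), the only called rise among the 44 genes in that comparison, and the call held in all 20 alternatives tried. It rose by 1.24 ± 0.40 in vitrification II against fresh control (0.62 relative, adjusted p = 0.0333) and was -1.34 ± 0.40 in vitrification II against vitrification I (-2.02 relative, adjusted p = 0.0165). The vitrification II call ended without fresh control library 2 or 3, or vitrification II library 1, 2 or 3 (adjusted p = 0.0635 to 0.134). The call between the vitrified groups ended without vitrification I library 1 or 3, or vitrification II library 2 (adjusted p = 0.0549 to 0.0606). For vitrification against fresh control the change of 0.82 ± 0.45 did not pass (adjusted p = 0.357).

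PSME3 (ENSSSCG00000017385) encodes the subunit of a nuclear activator that lets the 20S core degrade some proteins without ubiquitin. It had FPKM of 72.1, 35.9 and 42.6 in fresh control, 33.4 and 28.6 in vitrification, 28.6, 37.8 and 14.4 in vitrification I and 86, 96.1 and 93.8 in vitrification II. The vitrification II libraries lay close together above all others, and vitrification I library 3 was the lowest. PSME3 was 1.83 ± 0.39 higher in vitrification II than in vitrification I (1.15 relative, adjusted p = 0.00235), and the call held in all 20 alternatives tried. Against fresh control its change was 0.92 ± 0.39 (adjusted p = 0.0921).

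PSME1 and PSME2 encode the subunits of the interferon-inducible activator. PSME1 had FPKM of 23.9, 20.7 and 19.5 in fresh control, 25.4 and 18.4 in vitrification, 25.8, 33.5 and 6.51 in vitrification I and 19.9, 15.5 and 13.3 in vitrification II. PSME2 had FPKM of 1.59, 2.72 and 2.41 in fresh control, 2.65 and 1.35 in vitrification, 3.44, 4.94 and 3.47 in vitrification I and 1.44, 6.87 and 1.4 in vitrification II. Both genes overlapped between vitrification II and the other groups and neither was called. All 3 vitrification I values of PSME2 exceeded those of fresh control, with a change of 0.61 ± 0.44 (adjusted p = 0.354). The level of PSME3 was 2.31 ± 0.65 (SD, n = 3) times that of PSME1 in fresh control, 1.44 ± 0.17 (n = 2) in vitrification, 1.48 ± 0.63 (n = 3) in vitrification I and 5.87 ± 1.40 (n = 3) in vitrification II. PSME4 was 0.0334 ± 0.0050 (SD, n = 3) of PSME3 in fresh control, 0.129 ± 0.0836 (n = 2) in vitrification, 0.744 ± 0.575 (n = 3) in vitrification I and 0.0571 ± 0.0110 (n = 3) in vitrification II. FPKM is per gene length, and both ratios are of levels within a library, so they do not depend on its scaling. The PSME3 to PSME1 ratio was highest in vitrification II, where its lowest value was 4.33 against at most 3.02 elsewhere. In vitrification I library 3, with a ratio of 1.36, PSME4 exceeded PSME3.

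PSMF1 (ENSSSCG00000038854) encodes a protein first described as an inhibitor of the 20S core. It had FPKM of 5.04, 8.51 and 3.92 in fresh control, 11 and 2.44 in vitrification, 0.432, 6.48 and 1.28 in vitrification I and 25.9, 16 and 13.9 in vitrification II. All vitrification II libraries lay above the other 8, and vitrification I library 1 was the lowest. PSMF1 was 2.71 ± 0.58 higher in vitrification II than in vitrification I (2.03 relative, adjusted p = 0.00249), the largest difference among the 44 genes in any of the 4 comparisons before the median gene is subtracted, and the call held in all 20 alternatives tried. Relative to the median gene and after scaling to the 26S core the PSME4 rise in vitrification I was larger. Against fresh control the change of 1.53 ± 0.58 did not pass (adjusted p = 0.0647).

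**Figure D4:**
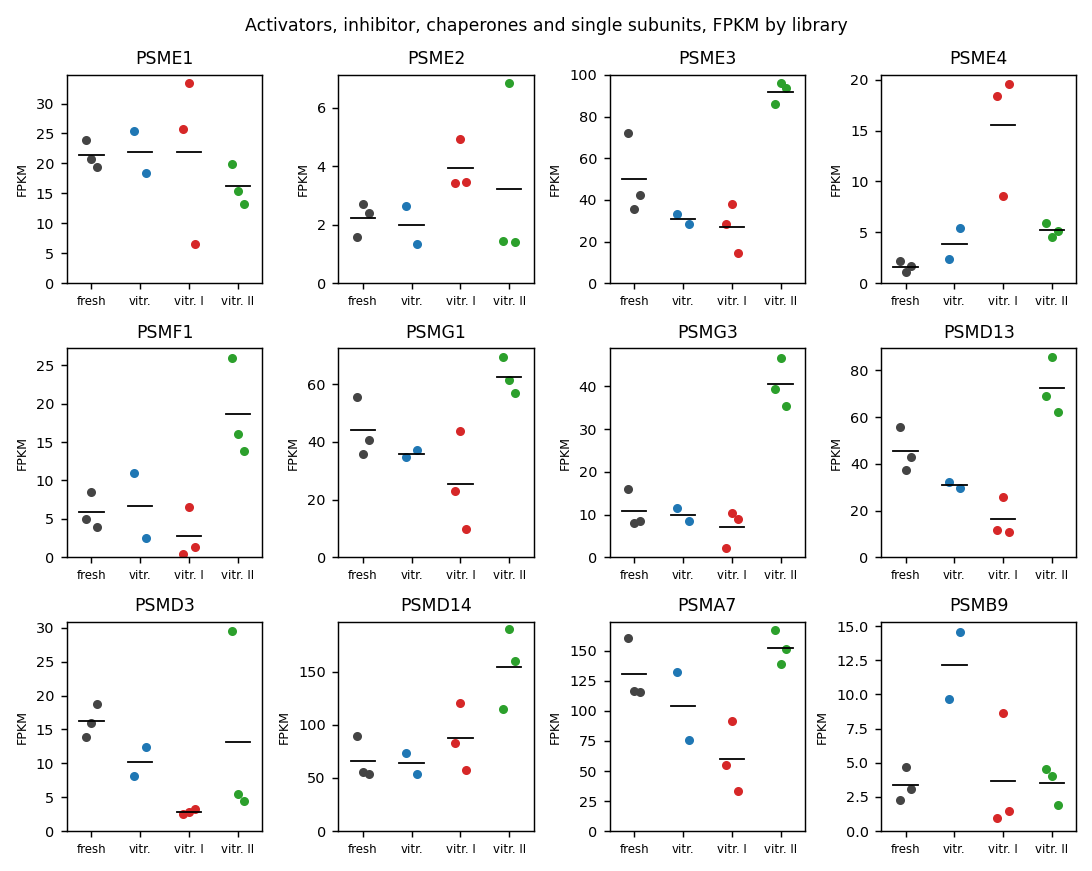
FPKM of 12 proteasome genes in each library (points) with the group mean (line), for fresh control (fresh), vitrification (vitr.), vitrification I (vitr. I) and vitrification II (vitr. II). PSME4 is highest in vitrification I (8.57 to 19.6), PSME3, PSMF1, PSMG1, PSMG3 and PSMD13 lie highest in vitrification II, and PSMB9 in vitrification (9.66 and 14.6).

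The 2 genes matched by symbol only were also tested. PSMC3IP, a partner of the meiotic recombinases, had FPKM of 4.9, 2.72 and 1.93 in fresh control, 5.02 and 4.13 in vitrification, 2.2, 7.21 and 0 in vitrification I and 14.9, 16.8 and 8.46 in vitrification II. Vitrification II lay above all other libraries. PSMC3IP was 1.79 ± 0.59 higher than in fresh control (1.17 relative, adjusted p = 0.0362) and 2.22 ± 0.59 higher than in vitrification I (1.54 relative, adjusted p = 0.00845). The PSMC3IP call against fresh control ended without fresh control library 2 or 3, or vitrification II library 1 or 2 (adjusted p = 0.0917 to 0.121). PSME3IP1, whose product binds PSME3, had FPKM of 19.5, 11 and 13.8 in fresh control, 15.3 and 9.95 in vitrification, 17, 23.6 and 6.16 in vitrification I and 21.1, 29.2 and 21.8 in vitrification II and was not called.

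To read single genes against the complex they belong to, each library was shifted so that the median of its 29 core genes was equal. This scaling was chosen after seeing the data. For vitrification against fresh control 1 of 44 genes was then called (either direction, 6.66% of all genes), namely PSMB9, which was 2.05 ± 0.56 higher (adjusted p = 0.0440). For vitrification I 5 genes were called (14.1% of all genes). PSME4 rose by 2.84 ± 0.51 (adjusted p = 0.00253), while PSMD13, PSMD3, PSMA7 and PSMC5 were lower, at -1.26 ± 0.30, -1.89 ± 0.57, -0.96 ± 0.29 and -0.95 ± 0.30. For vitrification II against fresh control 0 were called (5.58% of all genes). For vitrification II against vitrification I 7 were called (19.7% of all genes). Of these PSMD13, PSMG3, PSME3, PSMF1 and PSMC3IP were higher, by 1.38 ± 0.30, 1.74 ± 0.46, 1.03 ± 0.29, 1.90 ± 0.54 and 1.42 ± 0.45. PSME4 and PSMA4 were lower, at -2.14 ± 0.51 and -1.16 ± 0.31 (adjusted p = 0.0104 and 0.0194). On this scale the genes called between the 2 numbered vitrified groups belonged to the lid, the 20S chaperones, the activators, the inhibitor and the alpha ring, beside PSMC3IP. No ATPase or beta gene was called between these 2 groups. The ATPase and constitutive beta genes are among the 29 core genes whose median the scaling sets equal, so their lack of calls here is no result about them. The called genes PSMD13, PSMD3, PSMA7, PSMC5 and PSMA4 are among the 29 too, so their changes are relative to a median that includes them.

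Genes that work with the proteasome were counted from a list of 35, of which 32 were in the table and 27 passed the filter. For vitrification against fresh control 1 of 27 was higher (3.70%, against 1.25% of all genes), and 0 were lower (against 0.117%). For vitrification I 1 was higher (3.70%, against 8.85%) and 4 lower (14.8%, against 9.77%). For vitrification II 11 were higher than in fresh control (40.7%, against 24.6%) and 12 higher than in vitrification I (44.4%, against 34.7%), with 0 lower in either. Both counts include UBQLN4, which passed the filter only through vitrified libraries. Both also include ZFAND2A, and the count against fresh control includes UBA6. These fell to 0.737 and 0.594 FPKM in fresh control library 2, so they too needed vitrified libraries to pass. The median log2 changes of the list were 0.19, -0.07, 0.85 and 0.80, or 0.01, -0.01, 0.23 and 0.11 relative to all genes.

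NFE2L1 encodes a transcription factor that raises proteasome genes when proteasome activity is short. It had FPKM of 1.02, 1.09 and 1.0 in fresh control, 5.6 and 5.57 in vitrification, 4.31, 5.5 and 4.35 in vitrification I and 4.97, 4.26 and 5.1 in vitrification II. Every vitrified library lay above every fresh control library. NFE2L1 rose by 1.69 ± 0.35 in vitrification (adjusted p = 0.0335), 1.48 ± 0.32 in vitrification I (adjusted p = 0.00586) and 1.50 ± 0.32 in vitrification II (adjusted p = 0.00449), or 1.50, 1.55 and 0.88 relative to the median gene. These 3 changes share the fresh control libraries. The call in vitrification I held in all 20 alternatives tried. The vitrification call ended without fresh control library 1, 2 or 3, or vitrification library 1 or 2, or vitrification II library 2 or 3 (adjusted p = 0.0506 to 0.305). In vitrification the 44 proteasome genes had no call beside it. NGLY1, the glycosidase that processes the NFE2L1 protein, rose by 1.37 ± 0.38 in vitrification II against fresh control (adjusted p = 0.0177), a call that ended without fresh control library 2, or vitrification II library 2 or 3 (adjusted p = 0.0568 to 0.0810).

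KEAP1, an adaptor of a ubiquitin ligase that marks the related factor NFE2L2, had FPKM of 3.48, 4.5 and 5.51 in fresh control, 6.16 and 4.4 in vitrification, 0.706, 1.88 and 0.165 in vitrification I and 14.9, 11.8 and 19 in vitrification II. Vitrification I lay below and vitrification II above all other libraries. KEAP1 fell by 1.60 ± 0.39 in vitrification I (adjusted p = 0.0120), rose by 1.56 ± 0.39 in vitrification II (adjusted p = 0.0114) and differed by 3.16 ± 0.39 between them (adjusted p = 7.71e-05). The last call held in all 20 alternatives tried, and the fall was lost without fresh control library 3 (adjusted p = 0.0575). The rise was lost without vitrification II library 3 (adjusted p = 0.0511). It was lost also with a pseudocount of 0.1, quantile normalization, equal library medians and scaling to the 26S core (adjusted p = 0.0597 to 0.273). NFE2L2 itself was not called, with a change of -0.43 ± 0.33 in vitrification II against fresh control (adjusted p = 0.343).

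Among the ubiquitin genes, UBB encodes polyubiquitin and RPS27A encodes ubiquitin fused to a ribosomal protein. Ubiquitin genes carry nearly the same repeat, so reads may have been split between them. UBB had FPKM of 5258, 4959 and 5766 in fresh control, 4626 and 2789 in vitrification, 3125, 4522 and 2377 in vitrification I and 3892, 5334 and 3867 in vitrification II, and was not called. RPS27A had FPKM of 124, 227 and 186 in fresh control, 211 and 76.3 in vitrification, 61.7, 64.9 and 45.9 in vitrification I and 171, 153 and 191 in vitrification II. Vitrification I lay below all other libraries. RPS27A fell in vitrification I by 1.59 ± 0.39 (adjusted p = 0.0123). The RPS27A fall was lost without fresh control library 2 (adjusted p = 0.0623). The ubiquitin-activating enzyme UBA6 had FPKM of 1.24, 0.594 and 0.998 in fresh control and 4.57, 4.45 and 6.18 in vitrification II. UBA6 rose by 1.64 ± 0.38 in vitrification II against fresh control (adjusted p = 0.00722). It lay near the floor in fresh control and passed the filter only with vitrified libraries counted, so this call carries little weight.

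Shuttle receptors carry ubiquitin-tagged proteins to the proteasome. UBQLN1 had FPKM of 18.5, 8.33 and 10.8 in fresh control, 14.4 and 17.3 in vitrification, 10.5, 14.5 and 8.23 in vitrification I and 47.4, 45.3 and 44.5 in vitrification II. All vitrification II libraries lay above the other 8. UBQLN1 rose by 1.86 ± 0.36 against fresh control (1.23 relative, adjusted p = 0.00286) and was 1.99 ± 0.36 higher than in vitrification I (adjusted p = 0.000822), and both calls held in all 20 alternatives tried. VCP, the p97 unfoldase that pulls tagged proteins from complexes and membranes, had FPKM of 21.9, 26.2 and 52.1 in fresh control, 34.1 and 39.2 in vitrification, 25.9, 26.9 and 23.6 in vitrification I and 83.5, 68.3 and 61 in vitrification II. Vitrification II was above all others, and VCP rose by 1.15 ± 0.36 against fresh control (adjusted p = 0.0299). The VCP call ended without fresh control library 1 or 2, or vitrification II library 1, 2 or 3 (adjusted p = 0.0573 to 0.118). Its cofactor NSFL1C fell by 1.75 ± 0.54 in vitrification I (adjusted p = 0.0362), which ended without fresh control library 1, 2 or 3, or vitrification I library 1 or 3 (adjusted p = 0.0566 to 0.159).

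ADRM1, a ubiquitin receptor of the 19S base that the symbol rule does not cover, had FPKM of 20.5, 4.08 and 1.94 in fresh control, 0.277 and 1.04 in vitrification, 0, 1.47 and 0 in vitrification I and 11.4, 7.3 and 5.1 in vitrification II. Vitrification and vitrification I lay below the other groups, which overlapped, and fresh control 1 stood far above its group. ADRM1 fell by 2.34 ± 0.61 in vitrification I (adjusted p = 0.0156) and was 2.66 ± 0.61 higher in vitrification II than in vitrification I (adjusted p = 0.00354). The latter call held in all 20 alternatives tried, and the fall was lost without vitrification I library 1 or 3 (adjusted p = 0.0601 to 0.0604). ZFAND2A, a stress-induced protein that binds proteasomes, had FPKM of 1.22, 0.737 and 3.48 in fresh control, 7.51 and 7.48 in vitrification, 0.206, 0.609 and 0 in vitrification I and 5.51, 6.37 and 13.5 in vitrification II. Both vitrification and vitrification II lay above fresh control, and vitrification I lay below it. With an FPKM of 0.737 in fresh control library 2, ZFAND2A passed the filter only with vitrified libraries counted. ZFAND2A rose by 1.78 ± 0.43 in vitrification II against fresh control (adjusted p = 0.00886). Among fits that left out a library, that call ended only without fresh control library 2 (adjusted p = 0.0556). Its difference from vitrification I, 2.83 ± 0.43 (adjusted p = 0.000239), held in all 20 alternatives tried.

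POMP and USP14 were not called. POMP, the chaperone that completes the 20S core, had FPKM of 176, 93.5 and 94 in fresh control, 116 and 68.1 in vitrification, 166, 141 and 91 in vitrification I and 105, 144 and 107 in vitrification II, and its groups overlapped. Its change in vitrification II against fresh control was 0.02 ± 0.38, or -0.60 relative to the median gene. USP14, a deubiquitinase of the 19S cap, had FPKM of 28.4, 19.8 and 21.1 in fresh control, 24.6 and 30.1 in vitrification, 29.9, 28.7 and 18.1 in vitrification I and 45.9, 30.6 and 48.8 in vitrification II, and its change in vitrification II against fresh control, 0.82 ± 0.35, did not pass (adjusted p = 0.0939). The remaining calls for vitrification II against fresh control were UBQLN2 at 1.81 ± 0.45, UBQLN4 at 0.92 ± 0.31, ZFAND5 at 1.20 ± 0.40 and ECPAS at 1.07 ± 0.38. Against vitrification I they were UBQLN2 at 1.89 ± 0.45, UBQLN4 at 0.89 ± 0.31, ZFAND5 at 1.07 ± 0.40, NGLY1 at 1.18 ± 0.38, NSFL1C at 2.64 ± 0.54, UFD1 at 1.52 ± 0.39, VCP at 1.43 ± 0.36 and RPS27A at 1.57 ± 0.39. Of these 12 calls that of NSFL1C alone held in all 20 alternatives. UBQLN4 lay near the floor, at FPKM of 0.381, 0.873 and 0.743 in fresh control, 0.554, 0.558 and 1.02 in vitrification I and 2.0, 1.97 and 2.45 in vitrification II. It passed the filter only through vitrified libraries, so its calls carry little weight.

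Against fresh control the UBQLN2 call ended without fresh control library 2, or vitrification II library 3 (adjusted p = 0.0512 to 0.0648). The UBQLN4 call there ended without fresh control library 1, 2 or 3, or vitrification II library 1, 2 or 3 (adjusted p = 0.0798 to 0.115), and that of ZFAND5, which binds and stimulates proteasomes, without fresh control library 2 or 3, or vitrification II library 1, 2 or 3 (adjusted p = 0.0721 to 0.164). ECPAS, a protein that tethers proteasomes, lost its call without fresh control library 1, 2 or 3, or vitrification library 1 or 2, or vitrification II library 1, 2 or 3 (adjusted p = 0.0530 to 0.214). Against vitrification I the UBQLN4 call ended without fresh control library 2 or 3, or vitrification I library 1 or 2, or vitrification II library 1, 2 or 3 (adjusted p = 0.0512 to 0.101), and that of ZFAND5 without fresh control library 3, or vitrification I library 1, 2 or 3, or vitrification II library 1, 2 or 3 (adjusted p = 0.0578 to 0.131). For NGLY1 it ended without vitrification I library 3, or vitrification II library 2 or 3 (adjusted p = 0.0727 to 0.0964). The calls of UBQLN2, UFD1, VCP and RPS27A against vitrification I held in every fit that left out a library. Other scalings ended most calls of the partners in vitrification II against fresh control, the same 10 of 11 with equal library medians (0.108 to 0.941), after quantile normalization (0.130 to 0.733) and after scaling to the 26S core (0.114 to 0.709), with UBQLN1 called throughout. There 5 ended without the filter (0.0543 to 0.0953), 5 outside the mitochondrial genes (0.0502 to 0.142), 3 with a pseudocount of 0.1 (0.0570 to 0.0622), 3 with the replicate block (0.0517 to 0.0763) and VCP with array weights (0.0826). Against vitrification I 6 of 12 ended with equal library medians (0.126 to 0.862) and outside the mitochondrial genes (0.0518 to 0.475), 7 after scaling to the core (0.101 to 0.919), 5 after quantile normalization (0.0673 to 0.699), 3 without the filter (0.0511 to 0.104), 2 with the replicate block (0.0514 to 0.0589), ZFAND5 with a pseudocount of 0.1 (0.0516) and UBQLN4 in the fit of the compared groups only (0.0531). In vitrification I the NSFL1C call ended outside the mitochondrial genes (0.0889), in the fit of the compared groups only (0.0901) and after scaling to the core (0.0631), and the calls of NSFL1C, ADRM1 and RPS27A ended without the filter (0.0571 to 0.187). In vitrification NFE2L1 ended with equal library medians, after quantile normalization, in the fit of the compared groups only and with the replicate block (0.0506 to 0.0865). These p are adjusted p from limma.

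**Figure D5:**
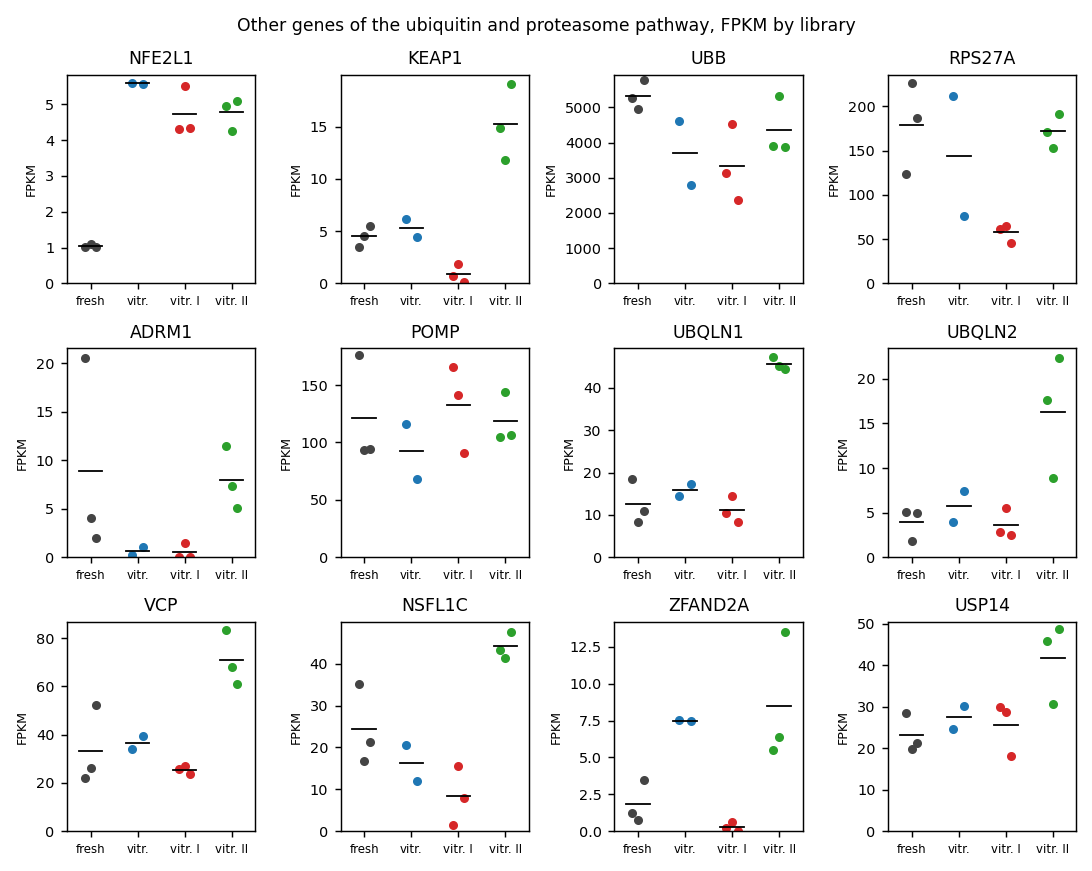
FPKM of 12 genes that act with the proteasome in each library (points) with the group mean (line), for fresh control (fresh), vitrification (vitr.), vitrification I (vitr. I) and vitrification II (vitr. II). NFE2L1 is near 1 in fresh control and 4.26 to 5.60 in every vitrified library, KEAP1 is lowest in vitrification I, and UBQLN1 is highest in vitrification II (44.5 to 47.4).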

How the data were processed

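RNA of pig parthenogenetic blastocysts was measured in 4 groups of 3 libraries, of which 11 had a column in the deposited table. The authors deposited FPKM for each Ensembl gene, with no counts, so depth is unknown and no interval that needs a count is given. Cufflinks 2.2.1, TopHat2 2.0.13, DESeq2 and FastQC are listed, per the submitters' processing notes, with no role for each. Genome build, annotation and multi-mapping rules are not given in the sources used here. FPKM are shares of a library, so a larger mitochondrial share leaves less for other genes.

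Gene symbols came from a table of Ensembl names. Log2(FPKM + 1) values of genes that reached an FPKM of 1 in 3 or more libraries were fitted with 1 mean per group over all 11 libraries in limma 3.58.1 (R 4.3.3; lmFit, eBayes with trend, two-sided), and p-values were adjusted over these 9411 genes by the Benjamini-Hochberg method. The script was tested on simulated data. For vitrification 2 libraries were used, although the test had been planned with 3. The labels give no batch or date. The 20 alternatives were another pseudocount (0.1), no filter, 4 other scalings (quantile, total FPKM outside the mitochondrial genes, equal library medians, equal median of the 26S core), array weights, fitting only the groups compared, a replicate block and leaving out each library. No library pair was identical.

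Members, gene lists and tests were chosen with earlier results of these data known. FPKM are printed in every library for called members (up to 10 per comparison by adjusted p), the highest and lowest member of each part, the catalytic pairs, activators, inhibitor and 20S chaperones. Some listed pathway genes are not reported here and were left out of the counts. The others are named when called, as are NFE2L1, POMP, ADRM1, VCP and USP14. Sequences were not used here.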

Additional observations from a re-analysis of the deposited data

How the results depend on the processing

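Over the 56 gene calls and their alternatives, 821 values kept their call, 299 kept the direction without the call, and 0 reversed. The counts of proteasome genes called moved more, and the cause was not tested. The share of all genes called, in either direction, moved between settings too, so a moved count is not by itself particular to proteasome genes. With core scaling that share was 6.66% in place of 1.37% for vitrification and 14.1% in place of 18.6% for vitrification I against fresh control. For vitrification II it was 5.58% in place of 25.7% against fresh control and 19.7% in place of 38.4% against vitrification I. For vitrification I against fresh control, 5 in the fit reported, they were 2 with no filter, 3 on the FPKM outside the mitochondrial genes, 8 with equal library medians and 3 with only the groups compared. Leaving out 1 library gave 2 to 12, with 3 without fresh control 2 or 3, 2 without vitrification I library 1, 12 without its library 2 and 3 without its library 3. For vitrification II against fresh control (4) they were 0 with no filter, quantile normalization or core scaling, 2 on the FPKM outside the mitochondrial genes, 1 (lower) with equal medians and 18 with array weights. Leaving out 1 library gave 0 to 7, with 7 without fresh control 1, 0 without fresh control 2, 1 without fresh control 3 or vitrification II library 2, and 2 without vitrification II library 3. For vitrification II against vitrification I (18) they were 10 with no filter (9 higher, 1 lower) or quantile normalization (8 and 2), 6 outside the mitochondrial genes (5 and 1), 7 with equal medians (4 and 3) or core scaling (5 and 2), and 9 to 23 without 1 library, with 9 without vitrification I library 3. For the F test (13) they were 4 with no filter, 6 after quantile normalization, 4 outside the mitochondrial genes, 8 with equal medians, 22 with array weights, 5 with core scaling and 7 to 20 without 1 library, with 7 without vitrification I library 1 or vitrification II library 2 and 20 without vitrification I library 2. For vitrification against fresh control (0) the count was 1 with core scaling and 0 in every fit without 1 library, also where a group kept a single library, which was assumed to vary like the others.

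Whether the replicate numbers pair the libraries could not be settled. Over 15 same-number pairs the correlation of deviations from group means ran from -0.158 to 0.143, and over 30 other pairs from -0.136 to 0.158. Of the 11 libraries 4 were closest to their own number. Deviations cancel within a group, so those of the 2 vitrification libraries mirror each other, and such a check cannot exclude pairing. With the replicate block the counts of proteasome genes were 0, 5, 4, 18 and 16 in the order vitrification, vitrification I and vitrification II against fresh control, vitrification II against vitrification I, and F test. Over all genes the block gave 55 calls for vitrification against fresh control in place of 129, and 1603, 2203, 3485 and 3742 in place of 1752, 2422, 3614 and 4016 for the others. No count was available to judge how depth limits these values.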
